A study of Homo sapiens with 2 samples.

Results

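The Eph receptors and ephrins described here are EPHA1, EPHA2, EPHA4, EPHB2, EPHB3 and EPHB4 among the receptors, and EFNA1, EFNA5, EFNB1 and EFNB2 among the ligands. These 10 genes were taken by name. Of them, 9 had a probe set annotated to that gene alone, out of 18377 genes measured in this way, and EPHB2 was not analysed here. The study compared EBC1-R with its parental line EBC1, with 1 array each, to look for mechanisms of resistance to a MET inhibitor. EBC1 is an established human cell line from a squamous carcinoma of the lung that carries extra copies of MET, the kinase receptor that hepatocyte growth factor binds. The EBC1-R subline came from EBC1 cells that outlived stepwise increases of PHA-665752, an inhibitor of the MET kinase, and was then grown with 3 µM of it, whereas no inhibitor is named for the EBC1 array. Selection and the presence of the drug therefore cannot be told apart, and EBC1-R is a single selected subline. With 1 array per line there is no replicate error, no test and no p-value, so each difference below is a size and not a tested change.

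Eph receptors are the largest family of receptor tyrosine kinases, and their ligands, the ephrins, are themselves bound to the surface of neighbouring cells. Contact between cells starts forward signalling in the cell with the receptor and reverse signalling in the cell with the ephrin, which together guide cell repulsion, boundary formation and migration. A-type ephrins are held by a lipid anchor and mostly bind A-type receptors, while B-type ephrins cross the membrane, carry a cytoplasmic tail and mostly bind B-type receptors. In carcinomas EPHA2 is the best studied member: its transcript is known to be induced by RAS-ERK signalling, and the receptor can promote migration without ligand, while binding of ephrin-A1 dampens ERK activity.

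In EBC1-R the receptor transcript EPHA2 and the ligand transcript EFNB2 were each lower by more than 2-fold, and EFNB1 was lower by a smaller amount. EFNA1, the preferred ligand of EPHA2, was slightly higher, and EPHB4, the main receptor of ephrin-B2, was slightly lower. EPHA1, EPHA4, EPHB3 and EFNA5 differed by no more than 0.13 log2 units either way. Of the 9 members 2 were at least 2-fold lower, a fold reached in that direction by 0.887% of all genes, and 0 were at least 2-fold higher, against 1.26% of all genes. In either direction 2.14% of all genes passed 2-fold. The members were listed with earlier results of these arrays known, so their count is not read as an enrichment.

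The upstream sequences of the 2 transcripts that differed most are shown because they are the 2 members on which the comparison turns. Each is the 250 bases before the annotated start in RefSeq (build GRCh38.p14), given 5′ to 3′ on the strand of the gene, at chr1:16156070-16156319 on the minus strand for EPHA2 and chr13:106535663-106535912 on the minus strand for EFNB2. Capitals mark a match to the cAMP response element, TGACGTCA.
EPHA2: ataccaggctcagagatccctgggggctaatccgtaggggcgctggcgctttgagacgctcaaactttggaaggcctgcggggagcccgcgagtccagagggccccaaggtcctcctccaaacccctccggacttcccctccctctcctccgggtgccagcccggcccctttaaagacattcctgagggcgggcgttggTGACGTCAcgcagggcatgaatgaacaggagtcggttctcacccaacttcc
EFNB2: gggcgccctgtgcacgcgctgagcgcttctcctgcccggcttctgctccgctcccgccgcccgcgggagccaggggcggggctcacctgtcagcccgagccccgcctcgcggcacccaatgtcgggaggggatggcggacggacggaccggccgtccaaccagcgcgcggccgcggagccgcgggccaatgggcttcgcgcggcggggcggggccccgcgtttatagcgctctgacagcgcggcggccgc
The EPHA2 match lies 51 to 44 bases before the start, and the same 8 letters occur in 1.65% of 35093 such upstream windows. The windows were also searched on both strands for the letters TGANTCA (AP-1), CCGGAA (ETS), TGGGAA (RBPJ) and ACGTG (hypoxia response element), which occur in 6.57%, 14.5%, 20.9% and 18.5% of all windows. EFNB2 held 0 matches to any of the 5 motifs, and EPHA2 held 0 matches to the other 4. All 9 measured members had an entry, 10 windows in all because EPHA4 has a pair of annotated starts. The other matches among them were 1 to TGGGAA in EPHA1, 1 to TGGGAA in EFNB1 and 1 to ACGTG in an EPHA4 window. The windows of EPHA2 and EFNB2 also differed in composition, with 15 CpG dinucleotides in EPHA2 and 40 in EFNB2, against a median of 11 over all windows. At least as many CpG as in EFNB2 were found in 2.16% of windows and at least as many as in EPHA2 in 42.9%. These counts describe sequence letters and say nothing about binding in these cells.

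Among the A-type receptors, EPHA2 had the largest difference of the 21 measured family genes. Its level was 9.37 in EBC1-R and 10.67 in EBC1, in log2 intensity as deposited. The difference, EBC1-R minus EBC1, was -1.30 log2 units, which is 2.46-fold lower in EBC1-R. Both values lay well above the level filter of 7.41, the median over genes of the higher of the 2 arrays. A decrease at least this large was seen in 70 of 18377 genes, or 0.381%. Among the 1653 genes whose mean level lay within 0.5 log2 units of that of EPHA2, 12 were lower by at least as much, or 0.726%. EPHA1, a receptor for ephrin-A1, was at 8.64 in EBC1-R and 8.61 in EBC1, a difference of 0.02. EPHA4, which binds ephrins of both types and is known from axon guidance, was at 6.13 in EBC1-R and 6.14 in EBC1, a difference of -0.01 under the level filter. The arrays thus differed for EPHA2 and not visibly for the other A-type receptors listed.

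**Figure D1:**
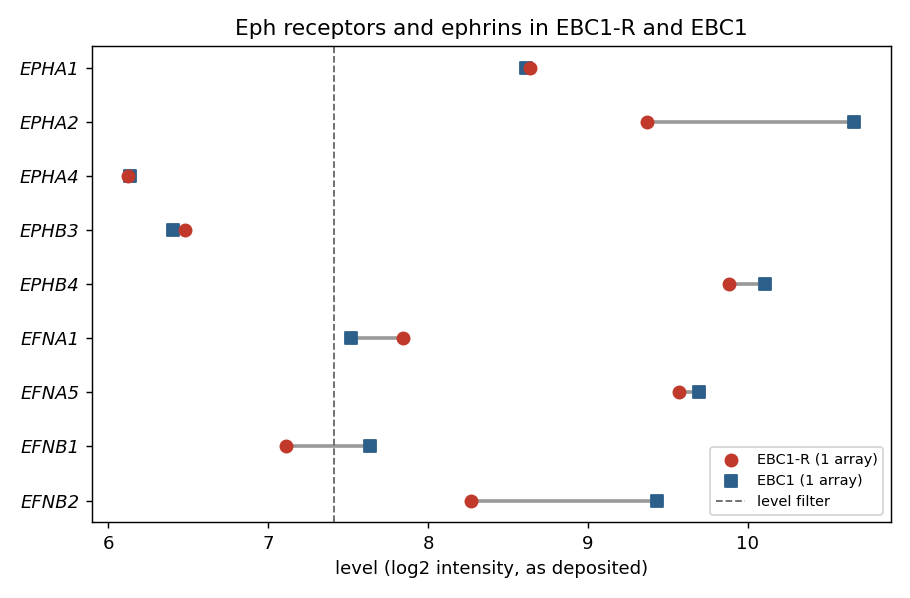
Levels of the 9 measured Eph receptors and ephrins, in log2 intensity as deposited (x axis), with 1 gene per row. Circles are EBC1-R and squares EBC1, 1 array each without error bars, and the dashed line is the level filter of 7.41. The widest gaps are those of EPHA2 (9.37 in EBC1-R, 10.67 in EBC1) and EFNB2 (8.27 in EBC1-R, 9.43 in EBC1), both lower in EBC1-R.

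Of the B-type receptors, EPHB4, which serves as the receptor of ephrin-B2 in venous endothelium, was at 9.89 in EBC1-R and 10.11 in EBC1. The difference was -0.22, or 1.17-fold lower in EBC1-R. Among all genes 18.4% were lower by at least that much, so EPHB4 lay within the bulk of the arrays. EPHB3, which helps to position cells along intestinal crypts, was at 6.48 in EBC1-R and 6.41 in EBC1, a difference of 0.07 under the level filter. Detection calls were not used, and the EPHB3 and EPHA4 values may therefore be background.

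The A-type ephrins differed little. EFNA1, first described as a transcript induced by tumour necrosis factor, was at 7.85 in EBC1-R and 7.52 in EBC1. Its difference of 0.32, or 1.25-fold, was the largest increase among the members, and 11.7% of all genes were higher by at least as much. EFNA5, known from the mapping of retinal axons, was at 9.57 in EBC1-R and 9.70 in EBC1, a difference of -0.13. EPHA2 and its ligand EFNA1 thus stood on opposite sides of 0, at -1.30 and 0.32.

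Of the B-type ephrins, EFNB2 and EFNB1 were lower. EFNB2, the ephrin of arterial endothelium, was at 8.27 in EBC1-R and 9.43 in EBC1. This is a difference of -1.16 log2 units, or 2.24-fold lower in EBC1-R, and both values lay above the level filter. Of all genes 101 were lower by at least as much (0.550%), and of the 2845 genes with a mean level within 0.5 log2 units 29 were (1.02%). EFNB1, whose loss causes craniofrontonasal syndrome, was at 7.11 in EBC1-R and 7.63 in EBC1. It was 1.44-fold lower, a difference of -0.52, which 3.86% of all genes reached in that direction. EFNB1 passed the level filter through the EBC1 array alone. The ligand EFNB2 and its receptor EPHB4 were both lower, by -1.16 and -0.22 log2 units, the ligand by far more.

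**Figure D2:**
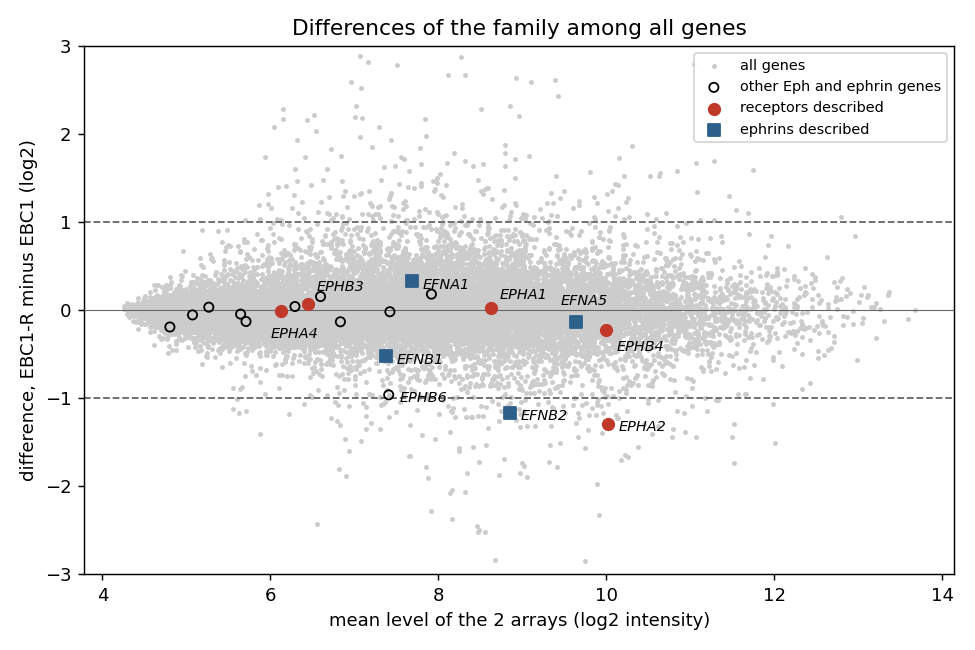
Difference between EBC1-R and EBC1 (y axis, log2 units) against the mean level of both arrays (x axis, log2 intensity) for all genes, with the Eph receptors as filled circles, the ephrins as squares and the other genes of the family as open circles. Dashed lines mark 2-fold, and 6 genes beyond 3 log2 units are outside the plotted range. EPHA2 (-1.30) and EFNB2 (-1.16) lie below the lower dashed line and EPHB6 (-0.96) just above it, while the rest of the family lies nearer to 0.

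Across the 9 members the median difference was -0.13, with 6 lower and 3 higher, against a median of -0.03 over all genes, of which 10197 were lower and 7958 higher. EPHA4, 1 of the 6, differed by only -0.01, and its sign changed with the scaling. Of the members, 7 passed the level filter, and 2 of these were at least 2-fold lower, where 153 of all 9189 genes above it were. The other 12 genes of the family were all measured, 3 of them above the level filter. Their median difference was -0.03, with values from -0.96 to 0.18, and none was 2-fold different. EPHB6, a receptor without kinase activity, had the largest of these differences. It was at 6.93 in EBC1-R and 7.89 in EBC1, which is -0.96 log2 units or 1.95-fold lower, just short of 2-fold, and it passed the level filter through EBC1 alone. EFNA4, at 8.01 in EBC1-R and 7.83 in EBC1, was 1.13-fold higher, and EFNA2, at 7.41 in EBC1-R and 7.43 in EBC1, differed by -0.02. Below the filter, EPHA6 differed by -0.19, EPHA10 and EPHB1 by -0.13 each, EPHA5 and EPHA3 by -0.05 each, EPHA7 by 0.03, EFNB3 by 0.04, EPHA8 by 0.07 and EFNA3 by 0.15. The genes under the filter thus all lay within 0.2 log2 units of 0. Every family gene except EPHA10 rests on 1 probe set, so agreement between probe sets could not be checked for the members. The pair for EPHA10 differed by -0.08 and -0.19.

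None of the other receptor tyrosine kinases differed by 2-fold, a fold that only 2.14% of all genes passed in either direction. The absence of such a difference is therefore not read as a result about these kinases. Of 40 measured outside the Eph family, 14 passed the level filter. Of the 40, 25 were lower and 15 higher, and the median was -0.05, against -0.03 over all genes. The largest differences above the level filter were those of MST1R, the MET paralog (8.86 in EBC1-R, 9.65 in EBC1, 1.73-fold lower), and AXL (11.06 in EBC1-R, 11.78 in EBC1, 1.64-fold lower). MERTK was 1.51-fold lower, EGFR 1.36-fold lower and LMTK2 1.38-fold higher. MET itself was at 13.21 in EBC1-R and 13.17 in EBC1. Whether EPHA2 differs from these kinases beyond the variation between cultures was not tested.

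Partners of Eph signalling inside the cell were mostly close to 0. Of 38 measured genes that act downstream of the receptors, 28 were lower and 9 higher, where 10197 of all 18377 genes were lower. The median was -0.10. Above the level filter 20 of 30 were lower and 9 higher, with a median of -0.07, where 4609 of all 9189 genes above it were lower. At least 2-fold different was 1 of the 38 genes, where 2.14% of all genes were, so this count is not read as a result about the list. The 2-fold different gene was TIAM1, an exchange factor that activates RAC1 and binds both EPHA2 and B-type ephrins. It was at 7.62 in EBC1-R and 8.73 in EBC1, or 2.16-fold lower. DOCK4, which acts with ELMO2 downstream of EPHA2, was at 10.00 in EBC1-R and 10.74 in EBC1, or 1.67-fold lower. ELMO2 itself went the other way, at 8.52 in EBC1-R and 8.11 in EBC1, or 1.33-fold higher. The kinase ABL2 was 1.45-fold lower, the adaptor NCK2 1.41-fold lower and the exchange factor ITSN1 1.40-fold higher.

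Among 15 genes listed for reverse signalling through ephrins, 13 were lower and 2 higher, with a median of -0.26. Over all genes 10197 of 18377 were lower and the median was -0.03. Above the level filter 10 of 12 were lower and 2 higher, where 4609 of all 9189 genes above it were lower. TIAM1 and NCK2 belong to this list as well, so the lists are not separate. The polarity protein PARD6B was at 10.42 in EBC1-R and 10.97 in EBC1, or 1.46-fold lower. PICK1, a PDZ-domain partner, was 1.37-fold lower, and RGS3, a regulator of G-protein signalling, 1.26-fold lower. Apart from TIAM1 none of the 15 was 2-fold different, where 2.14% of all genes were.

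Of 17 measured proteases and phosphatases that act on Eph receptors and ephrins, 10 were higher and 6 lower, with a median of 0.16. Over all genes 7958 of 18377 were higher and the median was -0.03. Above the level filter 7 of 10 were higher and 3 lower, where 4557 of all 9189 genes above it were higher. MMP14, a membrane protease that cleaves EPHA2, was at 8.26 in EBC1-R and 9.24 in EBC1. It was 1.98-fold lower, a difference of -0.98. The sheddase ADAM17 was at 10.43 in EBC1-R and 9.64 in EBC1, or 1.73-fold higher, and ADAM10, which cleaves ephrin-A ligands, was 1.23-fold higher. NCSTN, a subunit of gamma-secretase, was 1.30-fold higher, and PTPRF, a phosphatase of EPHA2, was 1.27-fold higher. EPHA2 and MMP14 were thus lower, and ADAM17 and ADAM10 higher. Under the level filter, the proteases RHBDL2 and MMP9 differed by 0.24 and 0.23, MMP2 and ADAM12 by -0.16 and -0.01, and KLK4 by 0. Whether the differences of EPHA2 and of its proteases are related was not tested.

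**Figure D3:**
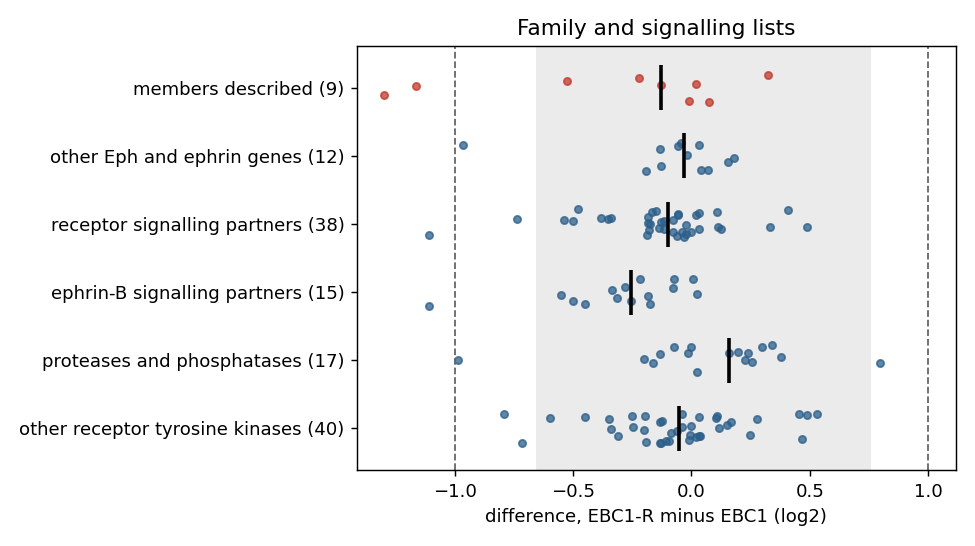
Difference between EBC1-R and EBC1 (x axis, log2 units) for each measured gene of the Eph family and of the related lists, 1 point per gene, with the number of genes in brackets. Vertical bars are medians, the grey band holds the central 95% of all genes (-0.65 to 0.75), and dashed lines mark 2-fold. EPHA2, EFNB2 and TIAM1, which is in both signalling lists, lie beyond 2-fold.

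Genes beside EPHA2 and EFNB2 in the chromosomal order did not differ by as much, although several of them were under the level filter. The 3 measured genes on each side of EPHA2 on chromosome 1 had a median difference of -0.11. In order these were SRARP (0.01), HSPB7 (-0.16) and FAM131C (-0.28) on one side and ARHGEF19 (-0.05), CPLANE2 (-0.48) and FBXO42 (0.33) on the other. On chromosome 13, EFNB2 lay between SLC10A2 (0.18), DAOA-AS1 (0.04) and DAOA (-0.11) on one side and ARGLU1 (-0.15), LIG4 (0.04) and ABHD13 (0.16) on the other, with a median of 0.04. All 12 neighbours were thus less than 1.5-fold different. SRARP, HSPB7 and ARHGEF19 beside EPHA2, and SLC10A2, DAOA-AS1 and DAOA beside EFNB2, were under the level filter. Such values may be background and could not show a shared decrease, so the comparison rests on the other neighbours. EPHA1, EPHB4 and EPHB6 lie on chromosome 7, as does the drug efflux gene ABCB1 named in the study's title, and their differences were 0.02, -0.22 and -0.96. A run of small increases surrounded EFNA1 on chromosome 1, in genes named after their values were seen: ADAM15 (0.10), EFNA4 (0.18), EFNA3 (0.15), EFNA1 itself (0.32), SLC50A1 (0.60), DPM3 (0.05) and KRTCAP2 (0.22). All 6 neighbours of EFNA1 were therefore higher in EBC1-R, while 7958 of all 18377 genes were.

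**Figure D4:**
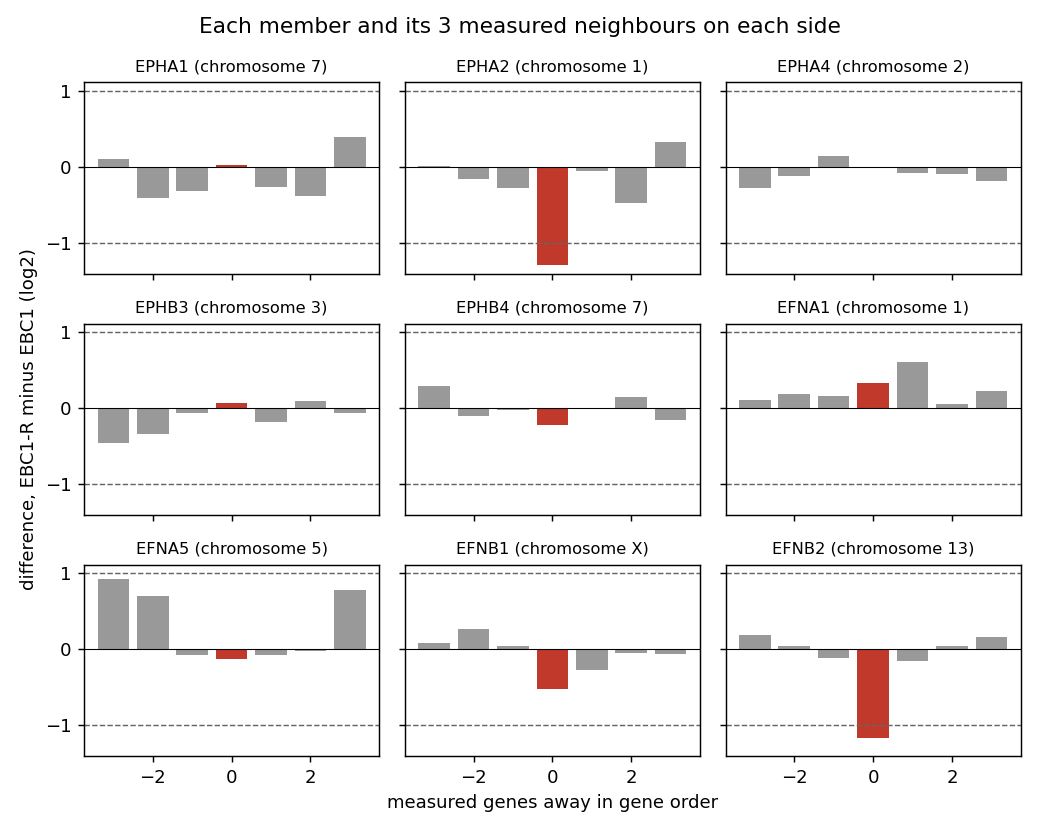
Difference between EBC1-R and EBC1 (y axis, log2 units) for each measured member (red, position 0) and its 3 measured neighbours on each side in the RefSeq gene order (grey, x axis in genes). Dashed lines mark 2-fold. EPHA2 (-1.30) and EFNB2 (-1.16) stand apart from their neighbours, whereas EFNA1 (0.32) lies in a run of genes that were all slightly higher. Several neighbours of EPHA2 and EFNB2 were under the level filter.

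Markers of the labelled and of other cell types were read on the same arrays. All 5 epithelial markers lay above the level filter, and the keratins KRT8, KRT18 and KRT19 were 1.77-fold, 1.72-fold and 1.86-fold lower in EBC1-R, while CDH1 and EPCAM differed by 0.10 and -0.08. None of the 5 squamous markers measured passed the level filter on either array, with differences from -0.30 to 0.12. All 6 endothelial markers, a cell type that carries EFNB2 and EPHB4, were under the filter, with differences from -0.25 to 0.17. Of the fibroblast markers 1 of 6 passed it (COL1A1, -0.03), and of the leukocyte markers 1 of 5 (CD68, 0.40). Whether the lower keratin levels are related to the EPHA2 and EFNB2 differences was not tested.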

How the data were processed

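Total RNA of EBC1-R and EBC1 cells was hybridised to 1 array per line. Per the labels' protocols, RNA was extracted with Trizol and 100 ng was labelled with a whole-transcript kit. The authors deposited 1 value per probe set, taken here as log2 intensity from its range (4.22 to 14.2 in EBC1-R, 4.21 to 14.1 in EBC1). Neither the log base nor the software and normalization are stated in the labels or the file. The sorted columns differed by at most 0.17, so a change shared by most genes would not be visible. The array named in the labels does not match the probe identifiers.

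Of 28869 probe sets, 19310 carried 1 symbol, 1752 several and 7807 none. Probe sets with 1 symbol were averaged per gene, which gave 18377 genes. Gene identifiers of 19279 of the single-symbol probe sets matched RefSeq (GRCh38.p14), and 0 symbols changed. RefSeq also gave the gene order and upstream windows. The calculation (Python 3.11.15, pandas 2.3.3, statsmodels 0.14.6) was tested on simulated data. Differences are EBC1-R minus EBC1 in log2 units, and 2-fold is 1 log2 unit.

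The members and lists were chosen with earlier results of these data known. All members and other family genes were named, with up to 5 genes of each list that had the largest difference above the level filter, MET, and the 3 neighbours on each side of members at least 2-fold different. The number of arrays limits the precision. Alternatives were quantile normalization, median centring, a lowess trend (span 0.2), a pseudocount of 16, the brightest probe set, the level filter and thresholds of 1.5-fold and 3-fold.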

Additional observations from a re-analysis of the deposited data

How the results depend on the processing

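The other settings were median centring, a lowess trend taken out, quantile normalization, a pseudocount of 16 and the brightest probe set. Under them the difference of EPHA2 stayed between -1.30 and -1.28 and that of EFNB2 between -1.17 and -1.12. In each, 2 members were at least 2-fold lower and 0 at least 2-fold higher. The brightest probe set could not change a member, because each measured member rests on 1 probe set. Median centring shifts every gene by the same amount. Quantile normalization could move little, because the sorted columns of the arrays already differed by at most 0.17. A pseudocount of 16 is small beside the intensities of EPHA2 and EFNB2. The narrow ranges of these 2 genes therefore say little about how certain their differences are. EFNB1 ranged from -0.53 to -0.48 and EFNA1 from 0.30 to 0.35. At a threshold of 3-fold the number of members lower was 0, and at 1.5-fold it was 2. EPHA4, at -0.01, was at 0.02 after quantile normalization, 0.01 after median centring and 0.05 with the lowess trend taken out, so under these 3 settings 5 members were lower and 4 higher. No value of the other family genes or lists moved by more than 0.16 log2 units, the SD between probe sets of a gene, under the 4 settings run on them. Probe sets naming several genes were not added because 0 of them name a family gene. No leave-one-out or paired analysis was possible because each line has 1 array. What limits the precision is this single array per line, and intensities under the level filter are not separated from background.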

Other observations

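Several genes near family members differed by more than the family gene beside them, and these were picked after their values were seen. PRSS1, a trypsinogen gene separated from EPHB6 by 1 measured gene on chromosome 7, was at 6.13 in EBC1-R and 7.73 in EBC1, a difference of -1.60. TRBC1, which lies between them in the measured order, differed by -0.04. Trypsinogen genes are near-identical to each other, so the PRSS1 probe set may also read its relatives, which was not tested. DNAH2, a dynein gene beside EFNB3 on chromosome 17, was at 7.02 in EBC1-R and 8.06 in EBC1, a difference of -1.05, and KDM6B and TMEM88 beyond it differed by -0.50 and -0.64, while EFNB3 differed by 0.04. MANEA, beside EPHA7 on chromosome 6, was at 8.33 in EBC1-R and 7.21 in EBC1, a difference of 1.12, while EPHA7 differed by 0.03. Around EFNA5, whose difference was -0.13, MACIR, NUDT12 and PJA2 were higher by 0.93, 0.70 and 0.79, whereas the genes directly beside EFNA5, RAB9BP1 and FBXL17, both differed by -0.08. Of the genes named here, PRSS1, DNAH2 and TMEM88 passed the level filter through EBC1 alone and MANEA through EBC1-R alone. TRBC1, NUDT12 and RAB9BP1 were under it.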
